A study of Mus musculus with 8 samples.

Results

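TRBV19, TRBV20, TRBV23, TRBV24, TRBV29 and TRBV30 are the V segments of the mouse T-cell receptor (TCR) β-chain locus that were listed here from the J-proximal end of the V array, apart from TRBV21, TRBV22 and TRBV26, which lie among them and were not included, and TRBV31, which lies beyond the J segments. All β-chain clonotypes whose V segment was 1 of these 6 were taken, out of 24 V segments listed in the 8 β-chain libraries. They amounted to 7774 of 60131 clonotypes (12.9%) and 10194 of 80000 reads (12.7%). A clonotype is a distinct nucleotide sequence of the CDR3, the loop at which the V, D and J segments join and through which the receptor touches peptide.

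Endogenous CD8+ T (en-T) cells were sequenced from 3 CTXpre mice and 5 CTXpre/CD4post mice, with 1 β-chain library per mouse. All were female C57BL/6 mice, 6 to 8 weeks old, that received 200000 B16F10 melanoma cells in the skin on day 0, on day 3 the lymphodepleting drug cyclophosphamide (CTX) at 300 mg/kg, on day 5 2000000 Thy1.1 Pmel-1 CD8+ T cells and 10000 IU IL-2 daily for 3 days. The receptor of Pmel-1 cells is a transgene that recognises gp100 of melanoma, and Thy1.1-negative CD8+ cells were sorted from inguinal lymph nodes and spleen on day 25, so that the libraries describe the host's own cells. The CTXpre/CD4post mice were also given 200 µg of the anti-CD4 antibody GK1.5 on days 10, 17 and 24, and the comparison asks whether CD4 depletion during recovery from CTX altered which receptors the en-T cells carried. The libraries hold no other transcripts, so the sorted cell type could not be checked against marker genes.

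A β-chain V segment is joined by the RAG recombinase to a D segment that has already joined a J segment. A pair of TRBD-TRBJ clusters lies downstream of the V array, TRBD1 with the TRBJ1 segments and then TRBD2 with the TRBJ2 segments, so that TRBD1 can meet either J cluster and TRBD2 usually only its own. RAG cuts between the coding end of the V segment and a recombination signal, whose first bases form the heptamer, after which coding ends are trimmed and nucleotides are added without a template. In the older nomenclature TRBV19 is Vβ6, TRBV20 is Vβ15, TRBV23 is Vβ20, TRBV24 is Vβ17, TRBV29 is Vβ7 and TRBV30 is Vβ18. Vβ6 and Vβ7 are known as targets of the Mls-1a superantigen, which C57BL/6 mice do not carry.

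In the GRCm38 (mm10) assembly all 6 segments lie on the plus strand of chromosome 6, upstream of TRBD1 (chr6:41533201-41533212). TRBV19 (chr6:41178375-41179048) was farthest from it, at 354153 bases, and TRBV20 (chr6:41188273-41188977) followed at 344224 bases. TRBV23 (chr6:41216073-41216526) and TRBV24 (chr6:41218091-41218557) are near neighbours, 316675 and 314644 bases away. TRBV29 (chr6:41271394-41271881) and TRBV30 (chr6:41281376-41281990) were closest, at 261320 and 251211 bases. Below are the germline ends of the 6 segments, from the first codon of the CDR3 through the recombination signal, read from the plus strand of the RefSeq copy of GRCm38. They are shown because they set how many bases each segment could bring to the CDR3, and the heptamer at which RAG cuts is in capitals.

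TRBV19: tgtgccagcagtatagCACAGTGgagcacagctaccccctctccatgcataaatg
TRBV20: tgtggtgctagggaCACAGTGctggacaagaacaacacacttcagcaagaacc
TRBV23: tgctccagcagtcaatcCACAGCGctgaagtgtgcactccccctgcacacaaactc
TRBV24: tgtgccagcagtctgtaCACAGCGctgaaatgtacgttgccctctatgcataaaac
TRBV29: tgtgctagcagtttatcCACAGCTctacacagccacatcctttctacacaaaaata
TRBV30: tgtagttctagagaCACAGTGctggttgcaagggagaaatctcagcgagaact

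These stretches lie in the last exon of each segment and the intergenic bases after it, at chr6:41179033-41179087 (TRBV19), chr6:41188964-41189016 (TRBV20), chr6:41216510-41216565 (TRBV23), chr6:41218541-41218596 (TRBV24), chr6:41271865-41271920 (TRBV29) and chr6:41281977-41282029 (TRBV30). Before the heptamer, TRBV23, TRBV24 and TRBV29 hold 17 coding bases, TRBV19 holds 16, and TRBV20 and TRBV30 hold 14. The 2 segments with 14 bases were the only ones of that length among 23 plus-strand V segments with clonotypes. The heptamer, read at its fixed place after the coding end, was CACAGTG in TRBV19, TRBV20 and TRBV30, against 8 of the 23 segments (34.8%), and its first 5 bases were CACAG in all 6 segments and in 22 of the 23. TRBV24 is annotated as a pseudogene and the other 5 as genes. Its V exon carries 1 stop codon in frame, with 1 codon between the stop and the CDR3, and TRBV22 was the only other segment of the 23 with such a stop.

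Each library had been down-sampled to 10000 reads, so depth did not differ between mice, and it held 5671 to 8529 β-chain clonotypes. All CDR3s were in frame and without a stop codon. A share of reads is given as a percent of these 10000, and 3 reads (0.03%) were taken as the limit that a count of 0 allows. The methods name no molecular identifiers, so reads are not independent molecules, and intervals and limits cover counting error only. The libraries of CTXpre/CD4post mice 1 and 2 stood apart from the other pairs. Of the nucleotide clonotypes of the 6 segments, 20 occurred in both, whereas any of the other 27 pairs had 0 to 5, and the 20 sequences held 85 reads in mouse 1 and 26 in mouse 2. Whether sequences passed between these libraries was not tested. The summed shares, the TRBV29 reads, the numbers of shared clonotypes and the group difference in sharing are given with and without them. A result given once includes them.

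TRBV29 was the most frequent of the 6 segments, followed by TRBV19 and TRBV20, while TRBV30, TRBV23 and TRBV24 were rare. TRBV29 took 369, 391 and 412 clonotypes in the CTXpre mice and 416, 562, 366, 300 and 309 in the CTXpre/CD4post mice. TRBV19 took 311, 354 and 342 against 315, 388, 308, 295 and 229. TRBV20 took 200, 219 and 169 against 197, 188, 217, 175 and 150. These 3 segments together made up 7182 of the 7774 clonotypes. TRBV30 had 36, 29 and 39 clonotypes against 32, 40, 38, 34 and 35. TRBV23 had 24, 16 and 25 against 24, 27, 28, 24 and 22. TRBV24 had 13, 15 and 25 against 12, 9, 16, 21 and 8. TRBV29 exceeded TRBV19, TRBV19 exceeded TRBV20, TRBV20 exceeded TRBV30 and TRBV30 exceeded TRBV23 in 8 of 8 mice, and TRBV23 exceeded TRBV24 in 7 mice and equalled it in 1. The ranges of TRBV29 and TRBV19 nevertheless overlapped across mice, at 4.30 to 6.76% and 3.86 to 4.67% of clonotypes, as did those of TRBV23 (0.188 to 0.388%) and TRBV24 (0.108 to 0.316%).

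The order did not follow the position on the chromosome, since TRBV29 and TRBV30, the closest to TRBD1, ranked 5 to 11 and 20 among all V segments of a mouse, and TRBV19 and TRBV20, the farthest, ranked 8 to 14 and 16 to 17. Counted in reads the order was unchanged. TRBV29 took 5.13 ± 0.870% of reads (SD, n = 8 mice), TRBV19 took 4.14 ± 0.290%, TRBV20 2.50 ± 0.336%, TRBV30 0.486 ± 0.0756%, TRBV23 0.304 ± 0.0701% and TRBV24 0.175 ± 0.0676%. The lowest value of all was 11 TRBV24 reads, in CTXpre/CD4post mice 2 and 5.

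**Figure D1:**
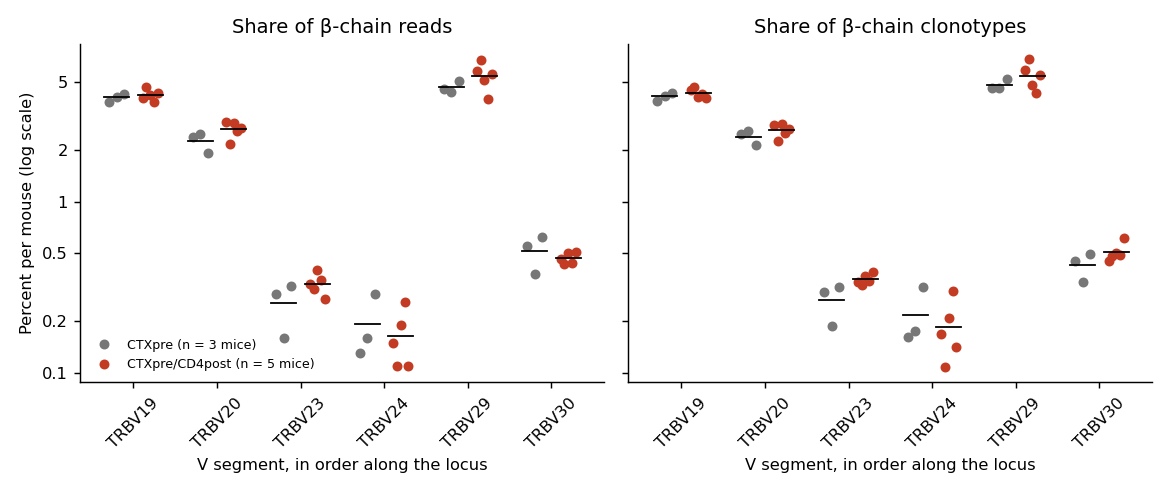
Share of β-chain reads (left) and clonotypes (right) of the 6 V segments, in percent of a library on a log scale, with 1 point per mouse and a line at the group mean. TRBV29, TRBV19 and TRBV20 lie above 1.9% in all 8 mice and TRBV30, TRBV23 and TRBV24 below 0.63%, and grey and red points overlap except for TRBV23 clonotypes.

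Whether each TRBV24 call is right could not be settled from the CDR3s. The germline CDR3 ends of TRBV24 and of its neighbour TRBV26 (Vβ3, a functional gene) differ in 1 of 17 bases. It is the last before the heptamer, where an added nucleotide can also stand. Of the 119 TRBV24 clonotypes, 34 kept all bases before the differing one, and 14 of these carried the TRBV24 base and 7 the TRBV26 base. Of 834 TRBV26 clonotypes, 150 kept those bases, and 16 carried the TRBV24 base and 103 the TRBV26 base. The deposited tables give the CDR3 alone, so that the rest of the V exon could not be checked. In-frame CDR3s of a segment with an upstream stop, as TRBV24 has in the C57BL/6 reference, do not by themselves encode a receptor chain.

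CD4 depletion was accompanied by no called difference in any of the 6 segments. Libraries were scaled to each other by TMM in edgeR, so its log2 differences are not plain ratios of the counts shown. For reads, edgeR's quasi-likelihood test called 0 of 6, against 1 of 23 V segments tested (4.35%), which was TRBV17, lower in the CTXpre/CD4post mice by the same test (log2 difference -0.33, adjusted p = 0.0269), a call lost with DESeq2 and without any one of 7 of the 8 mice. TRBV29 had 451, 436 and 507 reads in the CTXpre mice and 576, 669, 513, 399 and 556 in the CTXpre/CD4post mice. Mouse 2 was the highest and mouse 4 the lowest of all 8, both in the CTXpre/CD4post group, so the groups overlapped. The log2 difference was 0.14 ± 0.15 (SE, edgeR adjusted p = 0.556). With the sequences of mouse 1 left out of mouse 2 it was 0.14 (edgeR adjusted p = 0.529). TRBV19, with 379, 410 and 427 reads against 401, 467, 416, 380 and 432, was nearly flat (-0.04 ± 0.10, edgeR adjusted p = 0.757), and this sign changed with the scaling. TRBV20 had 239, 247 and 193 reads against 290, 218, 288, 259 and 269. Its CTXpre/CD4post values were above all CTXpre values except in mouse 2, with a log2 difference of 0.14 ± 0.14 (edgeR adjusted p = 0.515). The rare segments had wider errors, at 0.28 ± 0.28 for TRBV23, -0.33 ± 0.40 for TRBV24 and -0.23 ± 0.21 for TRBV30.

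By clonotypes, edgeR's quasi-likelihood test called 0 of the 6 segments and 0 of 22 segments tested (0.0%), with 3 of the 22 and 0 of the 6 at an unadjusted p under 0.05, and DESeq2 also called 0, with 3 under that value. The largest difference among the 6 was that of TRBV23, at 0.38 ± 0.21 (SE, log2, edgeR adjusted p = 0.365). Its share of clonotypes was 0.298, 0.188 and 0.316% in the CTXpre mice and 0.340, 0.325, 0.368, 0.344 and 0.388% in the CTXpre/CD4post mice. These ranges did not overlap, as in 4 of 23 V segments (17.4%), TRBV23 among them. They rest on 16 to 28 clonotypes a mouse, and without single mice the log2 difference ran from 0.19 to 0.50. The other log2 differences in clonotypes were 0.04 ± 0.09 for TRBV19, 0.10 ± 0.11 for TRBV20, 0.17 ± 0.13 for TRBV29, 0.23 ± 0.18 for TRBV30 and -0.24 ± 0.32 for TRBV24. In all, 5 of the 6 segments and 14 of the 22 were on the higher side, with medians of 0.13 and 0.07.

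**Figure D2:**
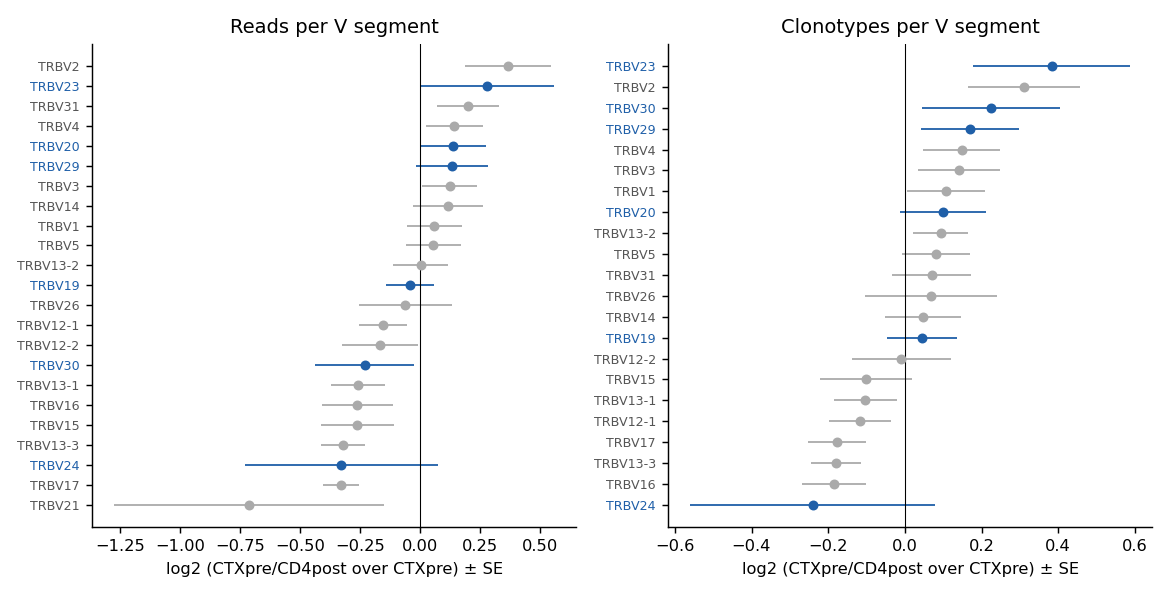
Log2 difference between CTXpre/CD4post and CTXpre mice in reads (left, 23 V segments) and clonotypes (right, 22 V segments), with bars of 1 SE. The 6 J-proximal segments are in blue. In reads they run from -0.33 (TRBV24) to 0.28 (TRBV23), inside the range of the other segments, and in clonotypes TRBV24 (-0.24) and TRBV23 (0.38) are the lowest and the highest of the 22, with wide bars.

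Summed over the 6 segments, the share of clonotypes was 11.8, 12.0 and 12.8% in the CTXpre mice and 14.1, 14.6, 12.8, 12.2 and 13.3% in the CTXpre/CD4post mice. The share of reads was 11.7, 11.6 and 12.5% against 13.6, 14.4, 13.3, 11.4 and 13.5%. Both group ranges overlapped, with CTXpre/CD4post mouse 4 lowest of all in reads. With the sequences of mouse 1 left out, mouse 2 was at 14.7% of clonotypes and 14.6% of reads. A sum is shown without a test.

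Over the 8 mice, TRBV29 and TRBV19 were correlated in share of clonotypes (Pearson's r = 0.74 on log2 shares, Spearman's rho = 0.57). Each was the most similar of the 22 compared segments to the other. Both were highest in CTXpre/CD4post mouse 2 (6.76 and 4.67%), whereas mouse 5 of that group had 5.45% TRBV29 and 4.04% TRBV19. A partner picked as the highest of 22 correlations has a high r by selection, and none was tested. TRBV23 and TRBV30 were likewise paired, at r = 0.92 and rho = 0.83. For TRBV20 the most similar segment was TRBV3 (r = 0.61), and for TRBV24 it was TRBV17 (r = 0.55). These values describe 8 libraries in which all shares sum to the same total.

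CDR3s made with TRBV20 and TRBV30 had the lowest mean lengths of the 21 V segments tested, and TRBV29 CDR3s were also short. Mean TRBV20 lengths were 13.1, 13.2 and 13.3 amino acids in the CTXpre mice and 13.2, 13.1, 13.0, 12.9 and 13.0 in the CTXpre/CD4post mice, whereas the 18 V segments outside the 6 averaged 13.9 to 14.0 in the same libraries. TRBV30 ranged from 12.9 to 13.4 and TRBV29 from 13.4 to 13.6, and all 3 segments were below the other V segments in 8 of 8 mice. TRBV19, at 13.6 to 14.0, was below in 7 mice. Within mice, limma gave a difference from all other V segments of -0.80 ± 0.037 amino acids for TRBV20 (SE, n = 8, adjusted p = 4.84e-09), -0.72 ± 0.053 for TRBV30 (adjusted p = 1.63e-07), -0.39 ± 0.027 for TRBV29 (adjusted p = 9.66e-08) and -0.11 ± 0.033 for TRBV19 (adjusted p = 0.00906). TRBV23 was on the other side without passing the limma test (0.24 ± 0.13, adjusted p = 0.103), and passed it when CTXpre/CD4post mouse 1 or 3 was left out (0.34 and 0.32, adjusted p = 0.0137 and 0.031). TRBV24 had too few clonotypes to be tested, and its mean of 14.3 ± 0.35 (SD) was the longest of the 6. Thus 4 of 5 tested segments were called, all as shorter, while 76.2% of the 21 V segments were called, 42.9% as shorter and 33.3% as longer. With clonotypes of 1 read left out, the call was lost for TRBV19 (-0.06, limma adjusted p = 0.419), and TRBV20, TRBV29 and TRBV30 passed in every setting in which they were fitted (13, 13 and 11).

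The peak of the distribution was shifted for TRBV20 and TRBV30 only. For TRBV20 and TRBV30 the commonest length was 13 amino acids, with 27.2 ± 4.1% and 33.8 ± 6.2% of clonotypes (SD, n = 8), whereas the commonest length was 14 for the V segments outside the 6, with 29.9 ± 0.50%. TRBV29 also peaked at 14 (31.6 ± 2.1%), but 12 amino acids were found in 14.6 ± 1.8% of its clonotypes against 10.8 ± 0.43%.

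**Figure D3:**
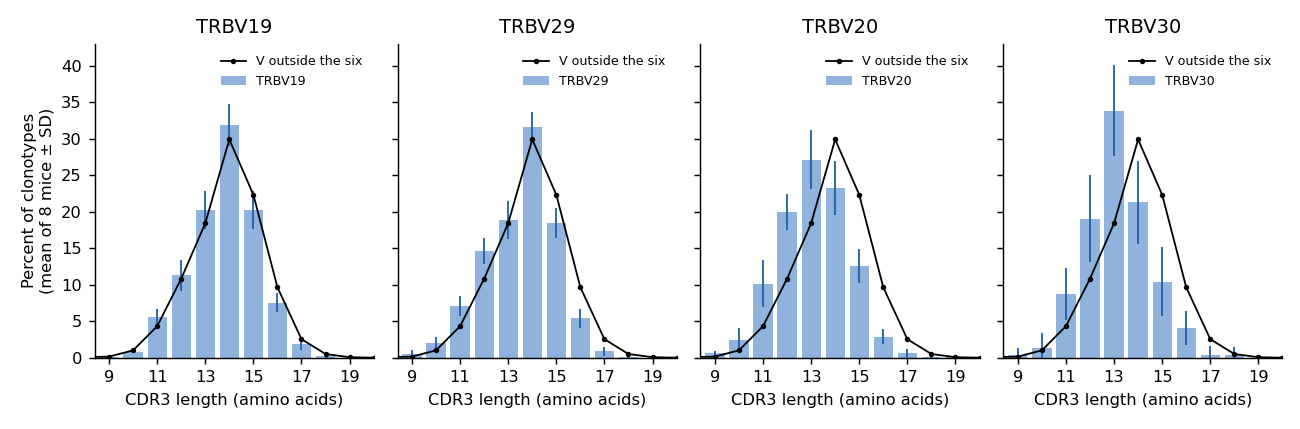
Distribution of CDR3 length in TRBV19, TRBV29, TRBV20 and TRBV30 clonotypes (bars, mean of 8 mice with SD), with the 18 V segments outside the 6 as a black line. TRBV20 and TRBV30 peak at 13 amino acids, and TRBV19 and TRBV29 at 14 like the line.

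TRBV20 and TRBV30 clonotypes also kept the fewest germline bases at the V end, although over the 6 segments the order of bases kept and of length was not the same. TRBV30 clonotypes kept on average 11.3 bases of their 14, TRBV20 clonotypes 11.7 of 14, TRBV19 clonotypes 12.7 of 16, TRBV29 clonotypes 12.9 of 17, TRBV24 clonotypes 13.9 of 17 and TRBV23 clonotypes 13.9 of 17. TRBV29 lost the most bases of the 6, at 4.07, and TRBV20 the fewest, at 2.35. The full germline end was intact in 32.4% of TRBV20 clonotypes and in 10.0% of TRBV29 clonotypes. A base that was trimmed and then replaced by the same letter counts as kept. The start of the CDR3 differed with the germline end, and 68.4% of TRBV20 CDR3s began with CGAR, 67.1% of TRBV30 CDR3s with CSSR and 85.3% of TRBV23 CDR3s with CSSS, while CASS opened 80.8% for TRBV19, 82.0% for TRBV29 and 88.2% for TRBV24.

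Nucleotides that matched no segment were more frequent in TRBV19 joins, with 3.14 to 3.54 per clonotype against 2.89 to 3.02 in the V segments outside the 6, and above them in 8 of 8 mice. Within mice the difference was 0.33 ± 0.045 nucleotides (SE, limma adjusted p = 2.25e-04). TRBV29 was also called (0.10 ± 0.033, limma adjusted p = 0.0235), but not without CTXpre mouse 1 or 3 or CTXpre/CD4post mouse 1 or 4 (0.09 to 0.10, limma adjusted p = 0.0593 to 0.0695). Of 5 tested segments 2 were called as higher and 0 as lower, against 28.6% higher and 57.1% called in all among 21. Both calls were lost without clonotypes of 1 read (0.19 and 0.06, limma adjusted p = 0.46 and 0.907). TRBV20, at -0.11 ± 0.056, was called only without CTXpre/CD4post mouse 5 (-0.14, limma adjusted p = 0.0444).

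TRBV19, TRBV20, TRBV23 and TRBV29 joined the TRBJ1 cluster more often than the remaining V segments did. The share of TRBV20 clonotypes with a TRBJ2 segment was 58.5, 59.4 and 54.4% in the CTXpre mice and 60.9, 63.3, 63.1, 65.7 and 60.7% in the CTXpre/CD4post mice, and the V segments outside the 6 were at 69.2 to 73.2%. TRBV19 ranged from 58.6 to 67.8% and TRBV29 from 61.6 to 69.9%, and these 3 segments were below the outside V segments in 8 of 8 mice. TRBV23 ranged from 53.6 to 75.0% and was below them in 6. On the log2 scale of TRBJ2 over TRBJ1 clonotypes, the limma difference from all other V segments was -0.62 ± 0.086 for TRBV20 (SE, adjusted p = 1.03e-04), -0.48 ± 0.15 for TRBV23 (adjusted p = 0.013), -0.41 ± 0.055 for TRBV19 (adjusted p = 9.55e-05) and -0.41 ± 0.044 for TRBV29 (adjusted p = 2.91e-05). TRBV30 stood on the other side, with 58.8 to 90.0% TRBJ2 and a difference of 0.42 ± 0.22 (limma adjusted p = 0.0964), which passed without CTXpre/CD4post mouse 4 (0.58, limma adjusted p = 0.0234) and weighted by reads (0.71, limma adjusted p = 0.0212). So 4 of 5 tested segments were called, each as lower, where 76.2% of 21 V segments were called, 42.9% as lower and 33.3% as higher. TRBV26, which lies between TRBV24 and TRBV29, was on the same side as the 4 (-0.50). Low TRBJ2 shares were not confined to this stretch of the locus. With all mice pooled, they were 66.6% for TRBV1 and 64.7% for TRBV2, the farthest from TRBD1, and 64.2% for TRBV31. TRBV19 and TRBV29 were at 64.2 and 64.3% by the same count. Without clonotypes of 1 read, TRBV23 could not be fitted and the other 3 calls were lost (TRBV19 -0.10, TRBV20 -0.62 and TRBV29 -0.37, limma adjusted p = 0.506, 0.0749 and 0.0749), and weighted by reads that of TRBV23 was lost (-0.39, limma adjusted p = 0.122).

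**Figure D4:**
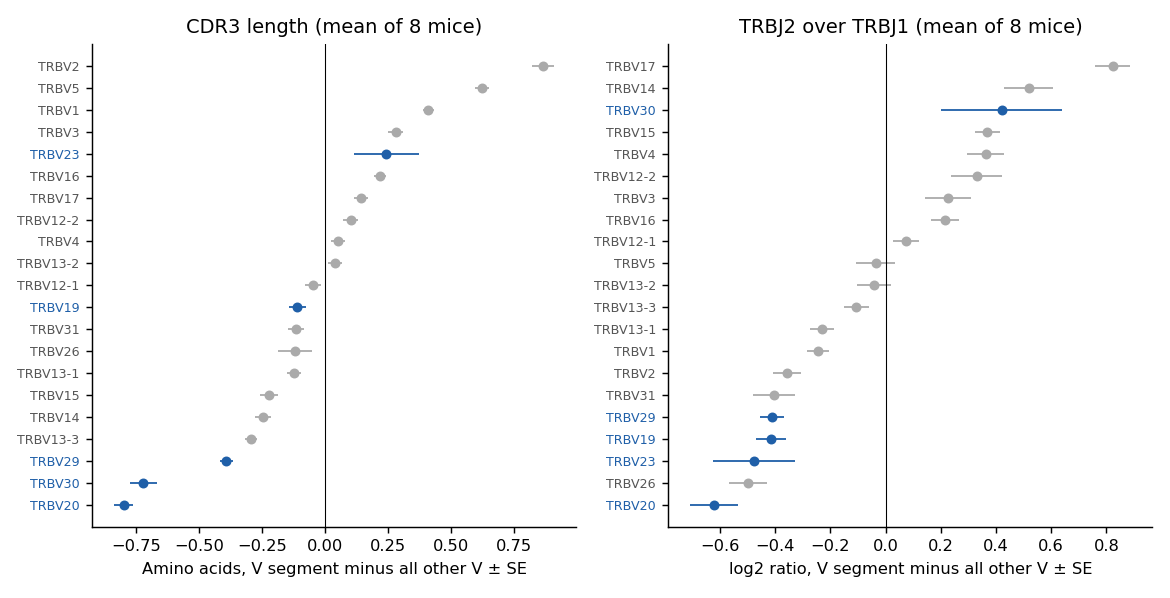
Difference of each of 21 V segments from all other V segments of the same mouse (mean of 8 mice, bars of 1 SE) in CDR3 length in amino acids (left) and in the log2 ratio of TRBJ2 to TRBJ1 clonotypes (right), with the J-proximal segments in blue. TRBV20 and TRBV30 have the lowest lengths, and TRBV19, TRBV20, TRBV23 and TRBV29 lie between -0.41 and -0.62 on the right while TRBV30 lies at 0.42.

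Among single J segments, TRBJ2-7 was the commonest partner of all 6. It took 18.7 ± 3.9% of TRBV19 clonotypes (SD, n = 8), 19.0 ± 3.0% for TRBV20, 20.5 ± 9.9% for TRBV23 and 19.2 ± 1.5% for TRBV29, and 23 of 119 TRBV24 clonotypes. For TRBV30 it took 31.8 ± 3.9%, or 90 of 283 clonotypes. The V segments outside the 6 gave 22.2 ± 0.61%. TRBJ1-1 made up 12.9% of TRBV19, 14.0% of TRBV20 and 10.5% of TRBV29 clonotypes on average, against 9.4% outside the 6. TRBD1 was assigned to 46.3 to 51.7% of clonotypes of the 6 segments together and to 37.5 to 40.3% of the others, higher in 8 of 8 mice. TRBV29 was highest of the 4 segments with over 200 clonotypes at 52.2 to 60.0%, and TRBV30, at 38.1 ± 8.8%, was not above the others on average. D segments are short and their assignment is uncertain after trimming, and these D shares were not tested.

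Between CTXpre and CTXpre/CD4post mice, no difference in J partners or CDR3 structure of the 6 segments passed its test. Of V-J pairs, 34 with these segments were abundant enough to test, and edgeR's quasi-likelihood test called 0, as it did of all 198 pairs tested (0.0%). At an unadjusted p under 0.05 there were 15 among the 198 and 0 among the 34, and DESeq2 called 0 with 9 under that value. The top pairs had log2 differences of -0.07 ± 0.16 (TRBV19 with TRBJ2-7), 0.38 ± 0.21 (TRBV20), 0.16 ± 0.15 (TRBV29) and 0.23 ± 0.33 (TRBV30). The TRBJ2 share of TRBV20 did not overlap between groups, at 54.4 to 59.4% and 60.7 to 65.7%, as in 1 of 23 V segments (4.35%), TRBV20 itself. By limma its log2 difference was 0.32 ± 0.11 (unadjusted p = 0.0189, adjusted p = 0.397), and limma called 0 of 5 of the segments and 0 of 21 V segments (0.0%), with 1 of each at an unadjusted p under 0.05. For CDR3 length limma called 0 of 5 and 0 of 21 (0.0%; 0 and 1 at an unadjusted p under 0.05), with differences between -0.15 ± 0.071 amino acids (TRBV20) and 0.05 ± 0.056 (TRBV29). For unassigned nucleotides it called 0 of 5 and 0 of 21 (0.0%; 0 and 1 unadjusted), with differences between -0.09 ± 0.10 (TRBV19) and 0.24 ± 0.13 (TRBV23).

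Expanded clonotypes, those of 10 or more reads, were found in TRBV19, TRBV20, TRBV29 and TRBV30. TRBV19, TRBV20 and TRBV29 supplied 35 of the 36, and they also held 92.4% of the clonotypes. Clonotypes of 10 or more reads numbered 3, 1 and 1 in the CTXpre mice and 3, 2, 5, 8 and 13 in the CTXpre/CD4post mice, out of 14, 8 and 8 against 42, 17, 26, 52 and 95 among all V segments. The groups overlapped, at 2 and 3. The difference in mean number was 4.53, and 2.83 without CTXpre/CD4post mouse 5. TRBV29 had 1 such clonotype of 1172 in the CTXpre mice and 12 of 1953 in the CTXpre/CD4post mice. TRBV19 had 3 of 1007 and 10 of 1535, and TRBV20 had 0 of 588 and 9 of 927. TRBV30 had 1 and 0, and TRBV23 and TRBV24 had none among their 190 and 119 clonotypes. As a share of its clonotypes, expansion was found in 0.594% for TRBV20, 0.511% for TRBV19, 0.416% for TRBV29 and 0.353% for TRBV30, so that the clonotypes of TRBV23 and TRBV24 were too few to show a lower rate. Over all mice, 36 of the 7774 clonotypes of the 6 segments and 226 of the 52357 outside them were expanded. In CTXpre/CD4post mouse 5, the expanded clonotypes held 25.2% of the reads of the 6 segments and 23.2% of the reads of the other V segments.

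The most abundant TRBV20 clonotype of a mouse held 8, 3 and 4 reads in the CTXpre mice and 15, 9, 30, 22 and 26 in the CTXpre/CD4post mice. These ranges did not overlap, as in 2 of 23 V segments (8.7%). TRBV20 reads per clonotype were 1.20, 1.13 and 1.14 against 1.47, 1.16, 1.33, 1.48 and 1.79. CTXpre/CD4post mouse 2 fell among the CTXpre mice. The log2 difference was 0.31 ± 0.14 (SE, limma adjusted p = 0.156), and it passed without mouse 2 (0.39, limma adjusted p = 0.0233) and without clonotypes of 1 read (0.59, limma adjusted p = 0.0338). TRBV24 reads per clonotype, at 1.00 to 1.16 against 1.19 to 1.38, did not overlap either, as in 2 of 23 V segments (8.7%), and rest on 8 to 25 clonotypes a mouse. TRBV30 had a log2 difference of -0.17 ± 0.14, opposite in sign to 20 of the 21 V segments tested, whose median was 0.19. Limma called 0 of 5 of the segments and 0 of 21 V segments (0.0%), with 1 and 4 at an unadjusted p under 0.05.

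The largest clonotype of each segment is given with its CDR3 nucleotide sequence, because these are the joins with the most reads. Bases assigned to no V, D or J segment are in capitals. For TRBV24, clonotypes of CTXpre/CD4post mice 1, 3, 4 and 5 tied at 3 reads, and the first by sequence is shown. Each clonotype shown was found in 1 mouse only.

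TRBV29-TRBJ1-4: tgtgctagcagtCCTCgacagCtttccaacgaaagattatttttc
TRBV19-TRBJ2-1: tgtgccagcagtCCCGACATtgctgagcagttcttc
TRBV20-TRBJ2-3: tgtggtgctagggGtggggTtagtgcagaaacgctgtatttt
TRBV30-TRBJ2-7: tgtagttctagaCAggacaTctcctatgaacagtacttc
TRBV23-TRBJ2-4: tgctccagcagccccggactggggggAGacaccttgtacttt
TRBV24-TRBJ1-6: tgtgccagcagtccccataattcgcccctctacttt

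The TRBV29 clonotype, of 15 amino acids, held 55 reads of CTXpre/CD4post mouse 5 (0.55%, Wilson 95% interval 0.423 to 0.715%). The TRBV19 clonotype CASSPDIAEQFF held 54 reads of the same mouse (0.54%, 0.414 to 0.704%) and has 8 unassigned bases. The TRBV20 clonotype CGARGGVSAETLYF held 30 reads of CTXpre/CD4post mouse 3 (0.30%, 0.210 to 0.428%). The TRBV30 clonotype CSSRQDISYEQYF held 14 reads of CTXpre mouse 1 (0.14%, 0.0834 to 0.235%), of the 55 TRBV30 reads of that mouse. The TRBV23 and TRBV24 clonotypes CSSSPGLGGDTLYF and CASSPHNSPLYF held 9 and 3 reads of CTXpre/CD4post mice 4 and 5. Larger clonotypes, of up to 162 reads, used V segments outside the 6.

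**Figure D5:**
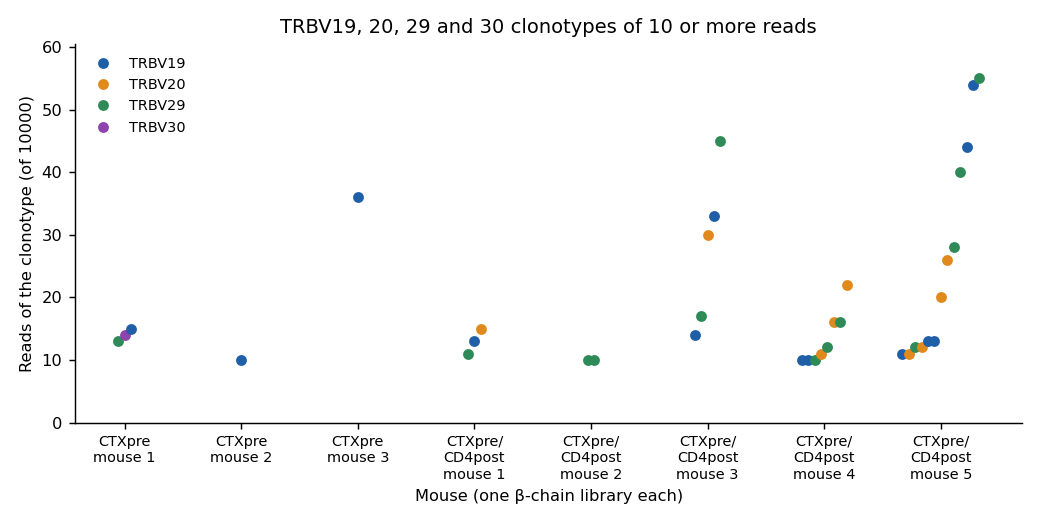
Reads, of 10000 per library, of each of the 36 clonotypes of 10 or more reads that used one of the 6 segments, by mouse and coloured by V segment. The CTXpre mice have 5 such clonotypes and the CTXpre/CD4post mice 31, of which 13 are in mouse 5, and none uses TRBV23 or TRBV24.

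The 36 expanded clonotypes and the other 7738 had mean CDR3 lengths of 13.5 and 13.5 amino acids, TRBJ2 shares of 63.9% each and 3.61 and 3.11 unassigned nucleotides, given here without a test. The nucleotide sequence was also found in another mouse, with any V segment, for 3 of the 36 (8.33%) and for 216 of the 7738 (2.79%), which was not tested. Of these 3, 2 were clonotypes of CTXpre/CD4post mouse 1 found in mouse 2. No amino acid clonotype of the 6 segments reached 10 reads in 2 or more mice, against 4 over all V segments.

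Clonotypes of the 6 segments were seldom shared between mice. With a clonotype taken as a V, a J and a CDR3 in amino acids, 232 of 7458 (3.11%) were found in 2 or more mice, against 2485 of 48689 (5.10%) for the V segments outside the 6. Per mouse, 6.01 to 7.33% of the clonotypes of the 6 segments and 9.96 to 12.0% of the others were found in another mouse, lower in 8 of 8 mice. TRBV20 (54 of 1439, 3.75%) and TRBV29 (107 of 2975, 3.60%) were shared most, TRBV19 (69 of 2455, 2.81%) less, and TRBV23, TRBV30 and TRBV24 in 1, 1 and 0 clonotypes. With the sequences of CTXpre/CD4post mouse 1 left out of mouse 2, 213 (2.86%) were found in 2 or more mice, 50 for TRBV20, 102 for TRBV29, 60 for TRBV19, 1 for TRBV23 and 0 for TRBV30. The sets differ in their number of clonotypes. Whether this bears on the shares was not tested, and no test was made of the shares themselves.

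None was found in more than 4 of 8 mice, and 5 were found in 4. All 5 are shown in the nucleotide form found in the most mice, with unassigned bases in capitals. In the order shown they hold 0, 0, 0, 4 and 1 such bases.

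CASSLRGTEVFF: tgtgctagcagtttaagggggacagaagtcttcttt
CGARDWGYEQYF: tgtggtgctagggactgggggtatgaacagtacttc
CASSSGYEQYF: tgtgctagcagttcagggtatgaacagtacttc
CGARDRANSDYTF: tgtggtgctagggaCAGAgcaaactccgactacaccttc
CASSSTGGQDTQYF: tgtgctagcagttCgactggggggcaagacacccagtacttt

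The TRBV29-TRBJ1-1 clonotype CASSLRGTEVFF had 2 and 1 reads in CTXpre mice 2 and 3 and 1 and 2 in CTXpre/CD4post mice 2 and 4. The TRBV20-TRBJ2-7 clonotype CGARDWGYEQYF had 1, 3, 1 and 1 reads in CTXpre/CD4post mice 1, 2, 4 and 5 and none in the CTXpre mice, which allows up to 0.03% each. It is 1 of the 20 sequences that mice 1 and 2 had in common, and without them 4 clonotypes were found in 4 mice. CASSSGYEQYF (TRBV29-TRBJ2-7), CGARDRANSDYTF (TRBV20-TRBJ1-2) and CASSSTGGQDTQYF (TRBV29-TRBJ2-5) were found in both groups with 5, 5 and 4 reads in all. In contrast to the expanded clonotypes above, each was at 1 to 3 reads in a mouse. Of the 232 shared clonotypes, 76.3% were made by more than 1 nucleotide sequence. Clonotypes shared with another mouse had 2.17 ± 0.27 unassigned nucleotides (SD of 8 mice) against 3.19 ± 0.073 in the rest, and were 12.8 ± 0.22 against 13.6 ± 0.036 amino acids long.

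The groups overlapped in how much they shared. Pairs of CTXpre mice had 10 to 14 amino acid clonotypes of the 6 segments in common, pairs across groups had 7 to 17, and pairs of CTXpre/CD4post mice had 8 to 13, apart from mice 1 and 2 with 25. The percent of clonotypes found in another mouse was 6.04 ± 0.043 (SD, n = 3) in the CTXpre mice and 6.68 ± 0.60 (SD, n = 5) in the CTXpre/CD4post mice. The ranges were 6.01 to 6.09% and 6.07 to 7.33%. The difference in means was 0.64 percentage points, and with CTXpre/CD4post mouse 1 left out of the matching it was -0.0062, and with mouse 2 left out 0.34.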

How the data were processed

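β-chain TCR libraries of en-T cells from 3 CTXpre and 5 CTXpre/CD4post mice were analysed, and α-chain libraries were not used here. The authors amplified TCR chains from 100 ng RNA by nested PCR (SMARTer mouse TCR a/b kit), sequenced paired reads of 300 bases on a MiSeq, trimmed them with Scythe (v0.994) and Sickle, aligned them with MiXCR and split chains by VDJtools, and reduced each library to 10000 reads by down-sampling. The versions of MiXCR and VDJtools are not given in the sources used here, and the submitters' processing notes name bcl2fastq and mm10. The deposited counts are reads per clonotype. The deposited fraction of a clonotype is its count over these reads and was not used. The segment end positions deposited with each CDR3 count from 0, and gave the bases assigned to no segment.

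Groups came from the sample labels. The 6 V segments, the rules and the lists were chosen with earlier results of these data known. Reads and clonotypes per V segment and V-J pair, with at least 10 in at least 3 mice, were compared in edgeR 4.0.16 (R 4.3.3, TMM, quasi-likelihood test), with DESeq2 1.42.0 as an alternative. Mean CDR3 length, unassigned nucleotides, log2 reads per clonotype and the log2 ratio of TRBJ2 to TRBJ1 clonotypes (0.5 added to each) were compared in limma 3.58.1 for V segments with a mean of at least 20 clonotypes, between groups and, within each mouse, against all other V segments. For edgeR, the SE is the size of the log2 difference divided by the square root of the F statistic of the test. p-values were adjusted by Benjamini-Hochberg over all features tested, with 0.05 as the threshold. They measure the spread between these libraries, 1 per mouse. Named were the 6 segments, the segment most similar to each, the commonest J partner, the largest clonotype of each segment, up to 8 clonotypes found in the most mice (the 5 found in 4 mice are printed), and pairs called, of which there were none. Ties for the largest clonotype were broken by order of nucleotide sequence. Germline sequences were read from GRCm38 (RefSeq) at GENCODE vM21 positions.

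On simulated data, edgeR recovered 81% of 1.5-fold changes in reads (23 V segments), 85% in clonotypes (22 V segments) and 41.4% in V-J pairs (198 pairs), and 100%, 100% and 94.4% of 4-fold changes. False calls numbered 5, 4 and 11 at 1.5-fold and 9, 3 and 32 at 4-fold. For limma, 60% of shifts of 0.25 and 100% of shifts of 0.5 were recovered. Every simulated feature had the same spread between libraries. In the 8 mice, the SD of mean CDR3 length ran from 0.069 amino acids (TRBV29) to 0.43 (TRBV23) among the 6 segments. Recovery at the SD of each segment was not tested, so the limma rates do not hold for a single segment. The edgeR rates are averages over abundant and rare features and do not hold for a single segment either. Alternatives covered the test, scaling, filter, clonotype definition, weighting by reads, clonotypes of 1 read or of 10 or more reads, the replicate block and each mouse left out. The removal of the sequences of CTXpre/CD4post mouse 1 from mouse 2, and of either mouse from the matching, was chosen after seeing the data. Tables were made with pandas 2.3.3 in Python 3.11.15.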

Additional observations from a re-analysis of the deposited data

Results flagged for a closer look

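In each group of 5 mice, the highest or lowest value of a segment was compared with the rest by Dixon's ratio, whose critical value for 5 mice is 0.71. Of 46 series of values tested, 2 exceeded it, where chance alone gives about 1 in 20. TRBV19 reads per clonotype in CTXpre/CD4post mouse 5 were 1.89, above 1.20 to 1.35 in the other 4 mice of its group, and 31.2% of the TRBV19 reads of this mouse were in clonotypes of 10 or more reads. In this mouse TRBV29 had 1.80 reads per clonotype, TRBV20 1.79 and the V segments outside the 6 had 1.76, against 1.21 to 1.44 for the latter in the other 4 mice, so that other segments were also high in it. TRBV30 made up 0.617% of the clonotypes of the same mouse, above 0.4529 to 0.4998% in the other 4. Mouse 5 also had the fewest β-chain clonotypes of the 8, at 5671, and its TRBV30 count of 35 lay within the 32 to 40 of its group.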

How the results depend on the processing

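Reads of the 6 segments were called in none of the settings tried, nor were clonotypes, CDR3 length, unassigned nucleotides or TRBJ2 share between groups. The 1 V segment called for reads, TRBV17, became 0 with DESeq2, library totals, DESeq2 size factors, no filter, clonotypes of 1 read left out and the sequences of CTXpre/CD4post mouse 1 left out of mouse 2, and 3 segments were called without clonotypes of 10 or more reads. Without clonotypes of 1 read, 2 V segments were called for clonotypes, 1 for TRBJ2 share and 5 for reads per clonotype between groups, and against the rest 9 for CDR3 length, 3 for TRBJ2 share and 1 for unassigned nucleotides (3 weighted by reads), with fewer clonotypes to count. The summed share of clonotypes then differed by 2.50 percentage points in place of 1.18. Counting clonotypes of 5 or more reads, the expanded clonotypes differed by 12.9 per mouse in place of 4.53, and the shared percent differed by -0.0023 in place of 0.64 with the sequences of mouse 1 left out of mouse 2. This setting removes every sequence the pair had in common, so that a fall follows from its construction. With mouse 1 left out of the matching between mice the shared percent differed by -0.0062, and with mouse 2 left out by 0.34. Where not given by the setting itself, the cause was not tested.

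Replicate numbers are shared by the groups, and the labels do not say whether they pair the mice. Same-numbered mice 1, 2 and 3 deviated from their group means with r = -0.68, -0.27 and 0.29 in reads. In clonotypes r was -0.22, 0.15 and 0.026. So few pairs cannot decide whether the mice were paired. The replicate block was fitted on mice 1, 2 and 3 of each group only, so that the set of mice changed as well as the model. With it, 2 V segments were called for clonotypes and 2 for reads per clonotype, one of them TRBV30 (-0.22, limma adjusted p = 0.0368). Which of the 2 changes made these calls was not tested. Under this block TRBV19 had a difference of 0.015 in reads, -0.0082 in CDR3 length and 0.043 in TRBJ2 share, and TRBV20 had -0.021 in unassigned nucleotides, each opposite in sign to the value above and not called in either.

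Other changes of sign were of differences that passed no test. TRBV19 reads differed by 0.022 with DESeq2, 0.049 with library totals, 0.022 with DESeq2 size factors and 0.095 without clonotypes of 1 read. TRBV30 differed by 0.031 in reads without clonotypes of 10 or more reads and by -0.47 in clonotypes without those of 1 read. Weighted by reads, TRBJ2 shares differed by 0.28 (TRBV19), 0.024 (TRBV23) and -0.42 (TRBV30), CDR3 length by -0.039 (TRBV30), and unassigned nucleotides by 0.0033 (TRBV19), 0.021 (TRBV29) and -0.029 (TRBV30). Without clonotypes of 1 read, unassigned nucleotides differed by 0.12 for TRBV29 between groups and by 0.031 for TRBV20 against the rest.

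With single mice left out, V segments called ranged from 0 to 3 for reads (0 without 7 of the 8 mice, 3 without CTXpre/CD4post mouse 3), 0 to 1 for clonotypes (1 without mouse 3 of that group) and 0 to 5 for reads per clonotype (5 without its mouse 2, 1 without its mouse 3). Signs changed, always uncalled, within -0.096 to 0.065 (TRBV19) and -0.55 to 0.16 (TRBV24) for reads, -0.036 to 0.067 (TRBV19) and -0.48 to 0.10 (TRBV24) for clonotypes, -0.0073 to 0.069 (TRBV19), -0.25 to 0.066 (TRBV23) and -0.057 to 0.12 (TRBV30) for CDR3 length, -0.098 to 0.066 (TRBV19), -0.30 to 0.28 (TRBV23), -0.25 to 0.016 (TRBV29) and -0.27 to 0.38 (TRBV30) for TRBJ2 share, and -0.048 to 0.30 (TRBV30) for unassigned nucleotides. TRBV24 changed sign without CTXpre mouse 3. Depth limits the rare segments most, since TRBV23, TRBV24 and TRBV30 rest on 8 to 40 clonotypes a mouse.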
